A study of Homo sapiens with 10 samples.

Results

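The 10 long non-coding RNAs and microRNA host genes described here were followed through 10 bulk RNA libraries of human blood cancer cell lines. The set holds MALAT1, NEAT1, GAS5, SNHG1, SNHG16, MIR17HG, MIR155HG, MIR22HG, HOTAIRM1 and H19, chosen by symbol, and all 10 are among the 20591 genes of the deposited table. Mixtures 1 to 6 each hold all 4 lines by their labels, in proportions that the labels do not give, and the lines alone are HL60 (promyelocytic acute leukaemia), K562 (chronic myeloid leukaemia with erythroid features), SUDHL4 (germinal-centre type B cell lymphoma) and THP1 (monocytic acute leukaemia). Every library is labelled wild type, untreated and day 0, from cells grown in RPMI with 10% serum. Each of these groups is 1 library, so no value below has a replicate check, no test between lines is given, and a level belongs to that library.

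MALAT1 and NEAT1 are abundant nuclear RNAs. MALAT1 lies in nuclear speckles, and NEAT1 is the scaffold on which proteins assemble into paraspeckles. GAS5, SNHG1 and SNHG16 are hosts of small nucleolar RNAs (snoRNAs), which are cut from their introns and guide the modification of ribosomal RNA. The spliced host transcripts begin like ribosomal protein mRNAs and are commonly degraded by nonsense-mediated decay. MIR17HG, MIR155HG and MIR22HG are primary transcripts of microRNAs, from which DROSHA and DGCR8 cut the hairpins, so that the host RNA is consumed as the microRNA is made. HOTAIRM1 is transcribed from the HOXA cluster and was described in myeloid differentiation. H19 is an imprinted RNA of fetal tissues that holds the hairpin of miR-675.

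The microRNA hosts are known for the mature microRNAs they release, so the sequences at stake are shown here, from RefSeq on GRCh38.p14 and written 5′ to 3′. Capitals mark the seed, bases 2 to 8, which pairs with target mRNAs. RefSeq gave 18 mature sequences from 9 hairpins, 6 of them in MIR17HG, and each lies inside the annotated span of its host. The ones below are the arms best known as the active strand.
hsa-miR-17-5p: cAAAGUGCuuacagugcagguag
hsa-miR-20a-5p: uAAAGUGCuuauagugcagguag
hsa-miR-18a-5p: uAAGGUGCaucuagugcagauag
hsa-miR-19a-3p: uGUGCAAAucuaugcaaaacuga
hsa-miR-19b-3p: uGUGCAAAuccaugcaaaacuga
hsa-miR-92a-3p: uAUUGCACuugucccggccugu
hsa-miR-155-5p: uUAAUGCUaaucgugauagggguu
hsa-miR-22-3p: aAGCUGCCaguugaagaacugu
hsa-miR-675-5p: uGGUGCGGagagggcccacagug
The 18 sequences hold 15 different seeds. The seed AAAGUGC is shared by miR-17-5p and miR-20a-5p, and GUGCAAA by miR-19a-3p and miR-19b-3p, so the single host MIR17HG carries more than 1 copy of the same targeting sequence. The mature microRNAs and the hosted snoRNAs themselves were not analysed here, and every value below is for a host transcript.

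The libraries held between 24985570 and 36607612 reads assigned to genes. Levels are in normalised CPM, the authors' counts scaled to a common depth with their own correction between libraries. One read was worth 0.0409 to 0.0594 normalised CPM, and for a gene with 0 reads the limit is taken as 3 reads, 0.0818 to 0.119 normalised CPM. Intervals are exact 95% Poisson intervals of the reads and, for ratios, exact conditional intervals. They cover counting error only, since amplified reads are not independent molecules. All 13 marker genes of the lines were at least 2 log2 units higher in their own line, with MPO at 15645 normalised CPM in HL60, HBE1 at 2755 in K562, MS4A1 at 2669 in SUDHL4 and LYZ at 1078 in THP1. The mixtures went against their labels in 3 cases. MS4A1, a B cell marker, had 0 reads in mixture 3, HBG1, a fetal globin, had 0 in mixture 4, and CLC, a granulocyte gene, had 0 in mixture 5. The estimated RNA shares, described with the mixtures, were 0% for SUDHL4 in mixture 3, 0.0231% for K562 in mixture 4 and 0.256% for HL60 in mixture 5. The kits named by the labels were a total RNA kit for low input and an mRNA kit, and which library was made with which is not stated.

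Of the 10 transcripts, 6 reached 5 normalised CPM in a pure line. Per kilobase of annotated exon, averaged over the 4 lines, GAS5 stood first at 40.8 normalised CPM per kilobase. SNHG1 followed at 13.1, SNHG16 at 9.52, H19 at 8.09 and MALAT1 at 6.23 on the same scale. NEAT1, the longest at 22743 bases, had 0.475 normalised CPM per kilobase. The microRNA hosts and HOTAIRM1 had between 0.118 (MIR22HG) and 0.368 (MIR17HG). On this average the snoRNA hosts thus exceeded the nuclear RNAs, and the microRNA hosts came last along with HOTAIRM1. With the longest transcript as the length, the order kept these places except that MIR155HG and HOTAIRM1 exchanged theirs. For NEAT1, with 8 annotated transcripts, both lengths were nearly the same, at 22767 and 22743 bases. Its value per kilobase would be higher for reads of a shorter transcript, which this alternative could not show. Single lines could differ from the average. In THP1, MALAT1 at 3.89 per kilobase of exon stood above SNHG1 at 3.69. H19 owed its average to K562, at 32.3 there and 0.0405 or less in each other line.

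**Figure D1:**
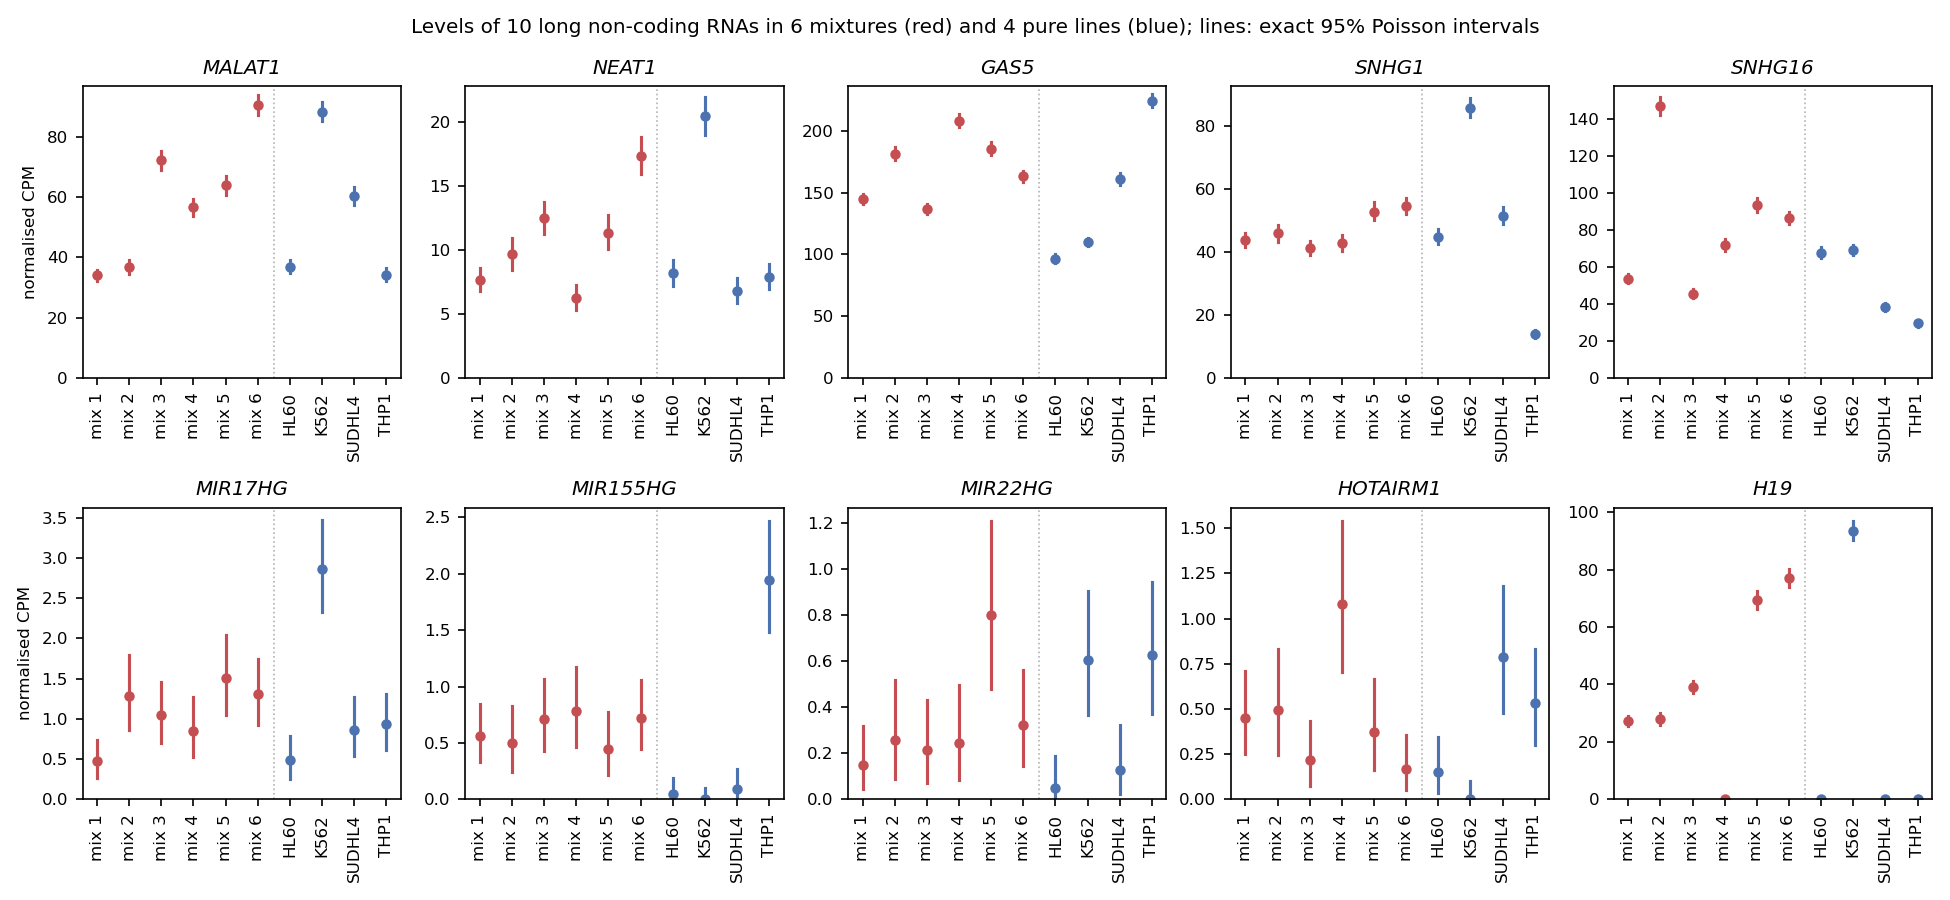
Level of each transcript in normalised CPM (linear axes from 0, a different range in each panel) in the 6 mixtures (red) and the 4 pure lines (blue), with vertical lines for the exact 95% Poisson interval of the reads. H19 stands at 93.6 in K562 and at 0.117 or less in the other lines, and SNHG16 reaches 146.6 in mixture 2, above its 4 pure levels.

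Enrichment in 1 line meant a level of 5 normalised CPM or more and a margin of 2 or more, in log2(value + 1), over each other pure line. By this rule 1 of the 10, H19 in K562, was enriched, where 8.06% of all genes were enriched in some line, 2.62% in K562, and 14.2% of the genes at 5 or more in a pure line. Over the 6 transcripts at 5 or more, 15 of 36 differences between pairs of lines reached 1 log2 unit, or 41.7%, near the 40.3% of all genes at that level. The median distance between the highest and lowest line was 1.40 log2 units for these 6 transcripts and 1.69 for the 11717 genes. K562 had the highest level of MALAT1, NEAT1, SNHG1, SNHG16, MIR17HG and H19. THP1 had the highest level of GAS5, MIR155HG and MIR22HG, and SUDHL4 that of HOTAIRM1. Of 130 other genes listed for their relation to these transcripts, 18 were enriched in a line, and of 16 housekeeping genes none was.

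MALAT1 (ENSG00000251562, a lincRNA at chr11:65497688-65506516 of GRCh38, plus strand) was at 88.4 normalised CPM in K562, 60.4 in SUDHL4, 37.0 in HL60 and 34.3 in THP1. K562 exceeded THP1 by 2.57-fold (interval 2.41 to 2.76). HL60 and THP1 did not differ beyond counting error, with a ratio of 1.08 (0.990 to 1.17), and their order turned round under each of 3 other scalings. NEAT1 (ENSG00000245532, a lincRNA at chr11:65422774-65445540, plus strand) was at 20.4 normalised CPM in K562, 8.16 in HL60, 7.90 in THP1 and 6.77 in SUDHL4. K562 exceeded SUDHL4 by 3.02-fold (2.57 to 3.57). The remaining lines could not be put in order, since the ratio of HL60 to THP1 was 1.03 (0.864 to 1.24) and that of THP1 to SUDHL4 was 1.17 (0.962 to 1.42). Both nuclear RNAs were thus highest in K562, and SUDHL4 stood above HL60 and THP1 for MALAT1 only.

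The proteins that build paraspeckles on NEAT1 varied less between the lines. All 13 listed genes were measured, none was enriched in a line, and their median range was 0.623 log2 units, against 1.69 for all genes at 5 or more. The widest were SMARCA4, a chromatin remodelling ATPase, with 798 normalised CPM in SUDHL4 and 201 in THP1, HNRNPH3, a splicing factor, with 247 in SUDHL4 and 79.3 in THP1, and PSPC1, a core paraspeckle protein, with 74.0 in SUDHL4 and 30.4 in K562. K562, the line with the most NEAT1, had the least PSPC1 and was the highest line for 4 of the 13, among them SFPQ, another core paraspeckle protein, with 554 normalised CPM in K562 and 246 in THP1. SFPQ was named after its values were seen. FRMD8 starts 36.2 kb from NEAT1 and had 19.2 normalised CPM in K562 and 21.2 in SUDHL4.

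The snoRNA hosts, the most abundant of the set per kilobase, each had their own order of lines. GAS5 (ENSG00000234741, chr1:173863900-173868882, minus strand) was at 225 normalised CPM in THP1, 161 in SUDHL4, 110.2 in K562 and 96.6 in HL60. Every step of this order exceeded counting error, and THP1 stood 2.33-fold above HL60 (2.23 to 2.43). SNHG1 (ENSG00000255717, chr11:62851988-62855914, minus strand) was at 85.9 normalised CPM in K562, 51.5 in SUDHL4, 44.9 in HL60 and 13.9 in THP1. Every step again exceeded counting error, and K562 stood 6.198-fold above THP1 (5.62 to 6.86). THP1 was therefore the top line for GAS5 and the bottom line for SNHG1. SNHG16 (ENSG00000163597, chr17:76557766-76565348, plus strand) was at 69.0 normalised CPM in K562, 67.5 in HL60, 38.2 in SUDHL4 and 29.4 in THP1. K562 and HL60 could not be told apart (ratio 1.02, 0.962 to 1.08), and K562 exceeded THP1 by 2.34-fold (2.17 to 2.53).

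Of 25 other snoRNA host genes listed, 23 were measured and 16 reached 5 normalised CPM. The enriched ones were 3, SNHG3 in K562, SNHG17 in HL60 and SNHG26 in SUDHL4, and the median range of the 16 was 1.73 log2 units. The widest were SNHG3, with 83.8 normalised CPM in K562 and 3.71 in THP1, SNHG5, with 325 in SUDHL4 and 18.8 in HL60, and SNHG14, an imprinted host of the Prader-Willi region, with 16.8 in THP1, 15.5 in HL60, 0.0424 in K562, which is 1 read, and 0 reads in SUDHL4. SNHG17 had 61.1 in HL60 and 6.00 in K562, and SNHG26 had 13.4 in SUDHL4 and 1.39 in HL60; both were named after their values were seen, as enriched genes of the list. The 23 hosts were highest in SUDHL4 in 9 cases, in K562 in 8, in THP1 in 4 and in HL60 in 2. SNHG3 was lowest in THP1, as SNHG1 was. The hosts highest in THP1, as GAS5 was, were SNHG14 and, named after their values were seen, SNHG6, SNHG32 and ZFAS1, with 170, 203 and 142 normalised CPM there.

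None of the 10 listed genes of nonsense-mediated decay, the pathway that degrades many spliced snoRNA hosts, was enriched in a line. Their median range was 1.30 log2 units, and THP1 was the highest line for none of them. The widest were the endonuclease SMG6, with 54.9 normalised CPM in SUDHL4 and 11.02 in THP1, UPF2, with 105 in SUDHL4 and 33.3 in THP1, and UPF3A, with 63.8 in SUDHL4 and 21.4 in THP1.

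SLC3A2, the heavy chain of amino acid transporters, starts 188 bases from SNHG1 on the opposite strand and had 194 normalised CPM in K562, 167 in HL60, 137 in SUDHL4 and 93.5 in THP1. Like SNHG1 it was highest in K562 and lowest in THP1, over a smaller range. ZBTB37 starts 800 bases from GAS5 on the opposite strand and had 10.1 normalised CPM in K562 and between 5.78 and 7.32 in the other lines. GAS5 overlaps both ZBTB37 and the antisense gene GAS5-AS1 in the annotation. The sources used here do not say whether counting used the strand, so reads of the overlapping stretch cannot be assigned with certainty, although GAS5-AS1 was at 0.239 or less in the pure lines.

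The microRNA hosts were low in all lines. MIR17HG (ENSG00000215417, chr13:91347820-91354579, plus strand), host of the 6 hairpins of the miR-17-92 cluster, had 101 reads in K562, 30 in THP1, 23 in SUDHL4 and 14 in HL60. These are 2.87, 0.932, 0.863 and 0.486 normalised CPM in the same order. K562 exceeded HL60 by 5.90-fold (3.46 to 11.5) and THP1 by 3.08-fold (2.05 to 4.85), while THP1, SUDHL4 and HL60 followed each other within counting error. HL60 was at 0.522 times the level of THP1, with an interval of 0.251 to 0.996 that ends just under 1.

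MIR155HG (ENSG00000234883, chr21:25561909-25575168, plus strand), also known as BIC and induced in activated B cells and macrophages, had 63 reads in THP1, 2 in SUDHL4, 1 in HL60 and 0 in K562. The level in THP1 was 1.94 normalised CPM, and it was at least 22.7-fold higher than in K562, with K562 taken at the limit of 3 reads (0.0847 normalised CPM); the exact interval of the ratio began at 17.9. Against SUDHL4 the ratio was 21.1 (6.96 to 221). The B cell lymphoma line thus did not carry more of this transcript than HL60 or K562 beyond counting error.

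MIR22HG (ENSG00000186594, chr17:1711493-1717174, minus strand), host of miR-22, had 20 reads in THP1, 21 in K562, 3 in SUDHL4 and 1 in HL60. The levels were 0.626, 0.607, 0.129 and 0.0503 normalised CPM. THP1 and K562 could not be told apart (ratio 1.03, 0.530 to 2.00), and K562 exceeded SUDHL4 by 4.72-fold (1.61 to 28.2). The ratio of THP1 to HL60 was 12.5, with an interval of 2.92 to 756 that the single read of HL60 sets. WDR81, which overlaps MIR22HG on the opposite strand, was more abundant, at 23.6 normalised CPM in THP1, 10.7 in K562, 25.3 in SUDHL4 and 24.3 in HL60. It did not share the low level of MIR22HG in HL60. SERPINF1, which encodes the secreted factor PEDF and starts 44.8 kb away, did, with 99.2 in THP1, 41.1 in K562, 1.30 in SUDHL4 and 0.0838 in HL60.

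Other microRNA hosts reached higher levels. Of 23 listed, 16 were measured and 5 reached 5 normalised CPM, and 1 was enriched. MIR9-3HG had 12.4 normalised CPM in THP1 and 0.285 or less in the other lines. MIR4435-2HG had 45.6 in K562, 15.05 in THP1, 10.7 in HL60 and 1.52 in SUDHL4. MIR210HG, host of the hypoxia-induced miR-210, had 7.23 in THP1, 3.71 in K562, 0.826 in SUDHL4 and 0.486 in HL60. MIR142HG, host of the blood cell microRNA miR-142 and chosen after its values were seen, had 4.94 in HL60 and 1.91 or less in the other lines. Against these, MIR17HG, MIR155HG and MIR22HG stayed at 2.87 or less in the pure lines.

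The machinery that turns host transcripts into microRNAs was measured in full. All 9 listed genes passed 5 normalised CPM and none was enriched, with a median range of 1.03 log2 units. The nuclease DROSHA, chosen after its values were seen, was at 125 normalised CPM in K562, 116 in HL60, 89.0 in SUDHL4 and 79.2 in THP1. The widest were AGO4, with 38.5 in THP1 and 5.89 in SUDHL4, AGO3, with 22.3 in K562 and 4.81 in THP1, and the DICER1 partner TARBP2, with 70.4 in HL60 and 26.0 in THP1. AGO3 and AGO4 are Argonaute proteins, which hold the mature microRNA on its target, and THP1 was the lowest line for AGO3 and the highest for AGO4.

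Known target genes of the hosted microRNAs are listed without any claim on their control. Of 10 targets of the miR-17-92 cluster, 9 reached 5 normalised CPM and 1 was enriched. It is CDKN1A, the cell cycle inhibitor p21, with 43.4 normalised CPM in THP1 and between 1.59 and 5.94 in the other lines. TGFBR2, a receptor for transforming growth factor beta, had 40.6 in THP1, 36.3 in HL60, 6.11 in SUDHL4 and 0.127 in K562. K562, with the most MIR17HG, had the lowest level of TGFBR2 but not of CDKN1A. Of 11 targets of miR-155, 8 reached 5 normalised CPM and 2 were enriched, both in SUDHL4. GCSAM, a germinal centre gene, had 34.5 normalised CPM in SUDHL4 and 0.687 or less in the other lines. INPP5D, the phosphatase SHIP1, had 495 normalised CPM in THP1, the line with the most MIR155HG, against 276 in SUDHL4, 255 in HL60 and 1.12 in K562.

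HOTAIRM1 (ENSG00000233429, chr7:27095647-27100265, plus strand) had 21 reads in SUDHL4, 17 in THP1, 4 in HL60 and 0 in K562. Its levels were 0.789 normalised CPM in SUDHL4, 0.535 in THP1 and 0.151 in HL60. SUDHL4 was at least 9.10-fold higher than K562, with K562 taken at 3 reads (exact interval from 6.77), and could not be told apart from THP1 (ratio 1.48, 0.746 to 3.00). THP1 exceeded HL60 by 3.54-fold (1.26 to 15.8). THP1 thus stood near SUDHL4, and HL60 was not distinguishable from K562.

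Other genes of the HOXA cluster within 50 kb were low in these lines. HOXA2, HOXA4, HOXA5, HOXA-AS2 and HOXA-AS3 were at 0.936 normalised CPM or less in every pure line.

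H19 (ENSG00000130600, chr11:1995176-2001470, minus strand) had 3313 reads in K562, 3 in HL60, 1 in THP1 and 0 in SUDHL4. The level in K562 was 93.6 normalised CPM (90.4 to 96.8). It was 797-fold that of HL60 (318 to 4513) and at least 849-fold higher than in SUDHL4, with SUDHL4 taken at 3 reads (0.110 normalised CPM; exact interval from 690.2). The log2 distance from the highest to the lowest line, 6.56, was larger than in 96.5% of all genes at 5 or more in a pure line. SNHG1 lay at the 66.8th percentile, NEAT1 at the 42.5th, MALAT1 at the 37.6th, GAS5 at the 32.5th and SNHG16 at the 32.1st.

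The growth factor gene IGF2, the imprinted partner of H19 on 11p15, was nearly absent. IGF2 had 0.0424 normalised CPM in K562, which is 1 read, and 0 reads in the other lines. Of the 5 listed genes, 4 reached 5 normalised CPM and 3 were enriched. CDKN1C, the cell cycle inhibitor p57, had 13.003 in K562, 1.21 in THP1, 0.117 in HL60 and 0 reads in SUDHL4. The transporter SLC22A18 had 32.8 in THP1 and 2.22 or less elsewhere, and the channel KCNQ1 had 26.3 in THP1 and 0.0918 or less elsewhere. PHLDA2, chosen after its values were seen, had 5.77 in K562 and 1.97 in THP1. MRPL23-AS1, which starts 11.6 kb from H19, had 1 read among the pure lines, in K562. H19, CDKN1C and PHLDA2 were thus highest in K562, and SLC22A18 and KCNQ1 in THP1.

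The mixtures allow a second reading of each transcript, since a mixture should lie between its sources on a common scale. The RNA share of each line was estimated from 100 other genes per line, as coefficients on the 4 pure profiles. The estimated share of K562 was 22.7%, 20.5%, 39.4%, 0.0231%, 53.5% and 52.9% in mixtures 1 to 6. HL60 made up 48.7% of mixture 2 and SUDHL4 58.2% of mixture 4. Fewer cells of a line and less RNA per cell cannot be told apart in these shares. The coefficients times the pure levels gave a predicted level for each transcript.

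H19 followed K562 across the mixtures. It was at 27.3, 27.9, 39.1, 0, 69.4 and 77.0 normalised CPM in mixtures 1 to 6, against predictions of 20.5, 18.3, 33.5, 0.0464, 48.8 and 48.1. Mixture 4 had 0 reads, for which the limit of 3 reads is 0.114 normalised CPM and the upper end of the exact interval 0.140. In each of the 5 mixtures with K562 RNA the observed level was above the predicted one, by 0.22 to 0.67 log2 units. With the coefficients rescaled to sum to 1, it was above by 0.08 in mixture 3 and by up to 0.63, in mixture 6. As a share of its level in pure K562, H19 was at 74.1% in mixture 5 (69.9 to 78.6) and 82.3% in mixture 6 (78.1 to 86.7). The other 538 genes enriched in K562 had medians of 49.8% and 51.0% there, and 9.29% and 3.90% of them were above H19. In mixtures 1, 2 and 3 H19 was at 29.2%, 29.8% and 41.8%, against medians of 22.3%, 19.4% and 37.0%. This comparison with other K562 genes was chosen after the values were seen and is a description.

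**Figure D2:**
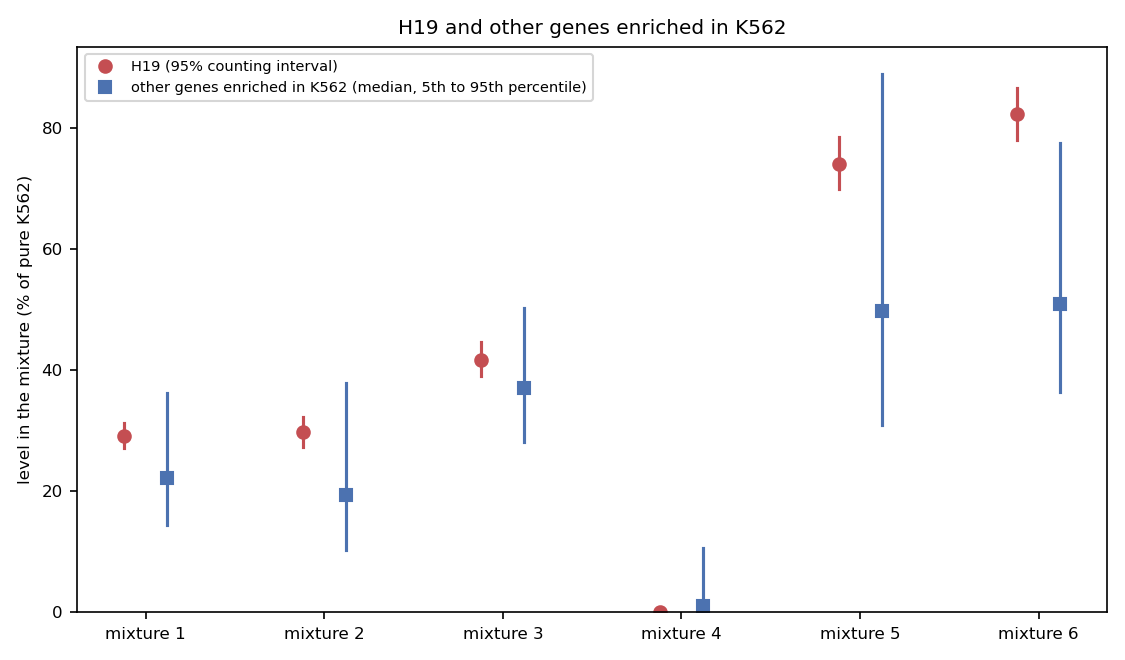
Level in each mixture as a percentage of the level in pure K562, for H19 (red, with its 95% counting interval) and for the other 538 genes enriched in K562 (blue squares, median, with a line for the 5th to the 95th percentile). H19 lies above the median of the other genes in mixtures 1, 2, 3, 5 and 6, and above their 95th percentile in mixture 6.

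A mixture value was counted outside the range of the pure lines when the interval of its ratio to the highest or the lowest line excluded 1. SNHG16 was the 1 transcript of the set with such values. It had 146.6 normalised CPM in mixture 2, 93.4 in mixture 5 and 86.3 in mixture 6, against 69.0 in K562, its highest pure line. These are 2.13 times (2.02 to 2.24), 1.35 times (1.28 to 1.43) and 1.25 times (1.18 to 1.32) the level in K562. Mixture 4, at 71.5, was not above K562 beyond counting error (ratio 1.04, 0.975 to 1.10), and mixtures 1 and 3, at 53.5 and 45.5, lay inside the range. Of 60 values over the 10 transcripts and 6 mixtures, these 3 were above the range by that rule and none below, where 1.22% of all values lay above and 2.32% lay outside on either side. In mixtures 2, 5 and 6 taken singly the share above was 2.68%, 2.01% and 0.976% of all genes. With housekeeping genes as the scale the count was 5, adding SNHG16 in mixture 4 and MALAT1 in mixture 6.

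Against the predicted levels, SNHG16 in mixture 2 was the only value off by at least 1 log2 unit, among 35 values at 5 or more observed or predicted. It stood 1.43 log2 units above a prediction of 53.9. In that mixture 1.22% of genes were off by at least 1 log2 unit in either direction, and over all mixtures 0.442% of values were. At 0.5 log2 units 8 of the 35 values were off, where 6.36% of all values were, and 7 of the 8 were above the prediction. SNHG16 was 0.93 above in mixture 4, 0.88 in mixture 5 and 0.70 in mixture 6. Of all genes, 7.15%, 1.95%, 5.11% and 2.61% were above by 0.5 in mixtures 2, 4, 5 and 6. GAS5 was 0.50 above in mixture 2, at 182 against a predicted 128, and H19 was 0.58 above in mixture 2 and 0.67 in mixture 6. With plain CPM, GAS5 in mixture 2 was at 0.49 and no longer counted. H19 in mixture 5 and MALAT1 in mixture 3 stood just inside, at 0.4996 and 0.492.

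SNHG1 gave the closest match of the 6 transcripts at 5 or more. It was at 43.9, 45.9, 41.2, 42.9, 52.9 and 54.6 normalised CPM in mixtures 1 to 6, against predictions of 45.1, 44.0, 45.5, 37.5, 55.4 and 57.0. No mixture was off by more than 0.19 log2 units. GAS5 was at 145, 182, 137, 209, 186 and 163 normalised CPM, against predictions of 146, 128, 133, 168, 151 and 143. It was close in mixtures 1 and 3 and above in the others. The 3 snoRNA hosts of the set therefore differed from each other in the same libraries.

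**Figure D3:**
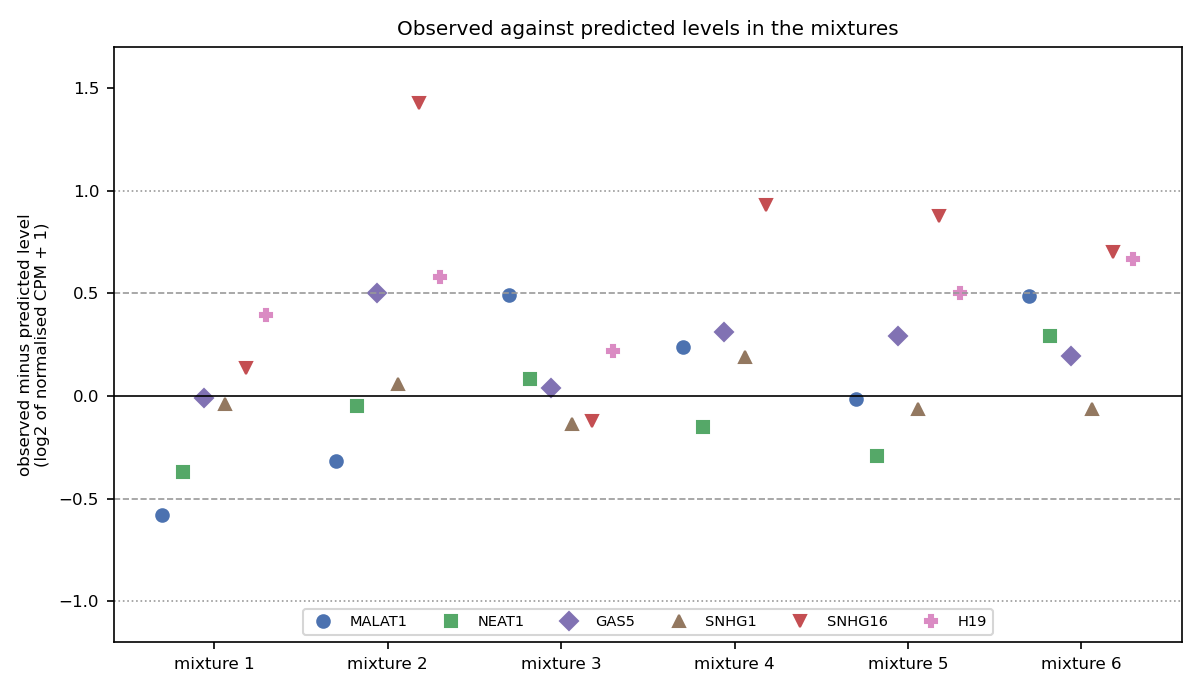
Observed minus predicted level, in log2 of normalised CPM + 1, of the 6 transcripts with at least 5 normalised CPM observed or predicted, in each mixture. Dashed lines stand at 0.5 and dotted lines at 1 log2 unit. SNHG16 stands above the upper dashed line in mixtures 2, 4, 5 and 6, and SNHG1 stays within 0.19 of 0.

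The 23 measured snoRNA hosts outside the set were read the same way. In mixture 2, 14 of the 15 at 5 or more were above the prediction, with a median of 0.46 log2 units over the 15, and 6 of them were above by at least 0.5, as were 7.15% of all genes. In mixture 4 all 16 were above (median 0.26), in mixture 5 it was 12 of 14 (0.31) and in mixture 6 it was 15 of 15 (0.22). In mixture 1 it was 11 of 14 (0.09), and in mixture 3 it was 8 of 14 (0.02). The host below the prediction in mixture 2 was SNHG14, at -0.29. The medians over all genes lay between -0.01 and 0.05 in the 6 mixtures. GAS5 in mixture 2 was thus near the other hosts, SNHG16 above them and SNHG1 below their median.

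Transcript length, a comparison chosen after the values were seen, moved with these levels. The median deviation of genes in the shortest of 5 length classes, up to 2146 bases, was 0.33 log2 units in mixture 2, 0.17 in mixture 4, 0.20 in mixture 5 and 0.13 in mixture 6. That of the longest class, from 6005 bases, was -0.36, -0.06, -0.29 and -0.17 in the same mixtures. In mixture 3 the signs were opposite, at -0.05 for the shortest and 0.10 for the longest class. GAS5, at 1698 bases, is in the shortest class. Of the 23 other hosts, 8 are in that class, 3 in the second, 1 in the fourth and 11 in no class. The classes hold only genes with a mean of at least 20 normalised CPM. SNHG16, at 3607 bases, is in the middle class, whose median was -0.07 in mixture 2, and H19 and SNHG1, at 2348 and 2768 bases, are in the second class. MALAT1, at 8708 bases, is in the longest class and stood at -0.58, -0.32, 0.49, 0.24, -0.01 and 0.49 in mixtures 1 to 6. Its sign was that of its class median in mixtures 1, 2, 3 and 5 and the opposite in mixtures 4 and 6. The part of length in the levels of the snoRNA hosts and of MALAT1 was not tested.

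**Figure D4:**
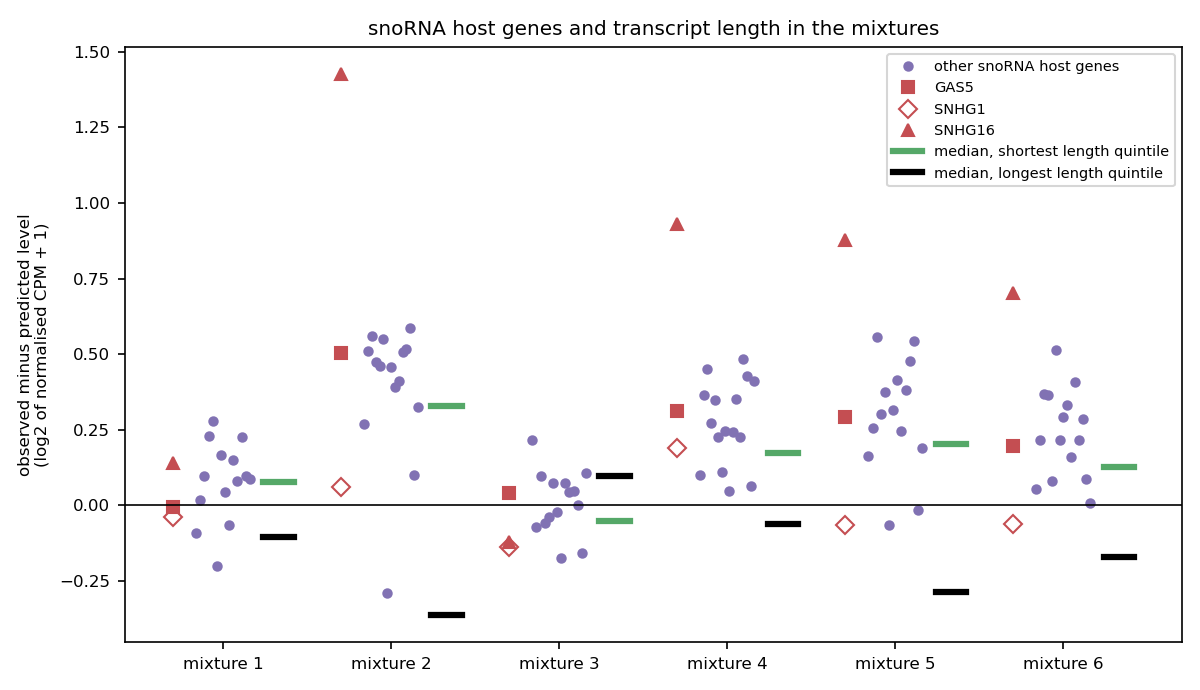
Observed minus predicted level, in log2 of normalised CPM + 1, in each mixture, for GAS5, SNHG1 and SNHG16 (red), for the other snoRNA host genes at 5 or more (purple) and as the median of the shortest (green) and longest (black) of 5 classes of transcript length. In mixture 2 the purple points have a median of 0.46 while SNHG16 stands at 1.43 and SNHG1 at 0.06.

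The nuclear RNAs deviated in their own way. MALAT1 was at 34.0, 36.8, 72.2, 56.7, 64.0 and 90.6 normalised CPM in mixtures 1 to 6, against predictions of 51.3, 46.1, 51.1, 47.9, 64.6 and 64.3. It was 0.58 log2 units below in mixture 1, the only low one of the 8 values off by 0.5. In that mixture 1.56% of genes were off by at least 0.5 in either direction. MALAT1 was 0.49 above in mixtures 3 and 6. NEAT1 was at 7.65, 9.64, 12.5, 6.21, 11.3 and 17.3 normalised CPM, against predictions of 10.2, 10.0, 11.7, 6.996, 14.1 and 14.002, and no mixture was off by 0.5. Both were below the prediction in mixtures 1 and 2 and above it in mixtures 3 and 6, NEAT1 in mixture 3 by 0.08 and, with the coefficients rescaled to sum to 1, at -0.05.

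A list drawn up for transcripts without a poly(A) tail had 15 entries. Of these, 13 were measured, 9 reached 5 normalised CPM in a pure line and 7 were enriched, all of them histone genes in K562. The widest were H1-2, H2AC6 and H2BC12, with 1008, 169 and 383 normalised CPM in K562 and 15.4 or less in each other line. RN7SK, chosen after its values were seen, was at 9.29, 38.6, 122, 13.7, 41.0 and 12.6 normalised CPM in mixtures 1 to 6, against 14.9 to 56.0 in the pure lines. RMRP, chosen likewise, was at 31.1 in mixture 3 and between 1.87 and 11.3 in the other mixtures, against 1.99 to 9.82 in the pure lines. Against its predictions RN7SK stood at -1.31, 0.97, 2.96, -1.41, 1.05 and -0.60 log2 units in mixtures 1 to 6. Its sign was that of MALAT1 in mixtures 1 and 3 and the opposite in mixtures 2, 4, 5 and 6. The histone genes of the list stayed within 0.5 log2 units of the prediction wherever they had 5 or more, H1-2 between -0.19 and 0.21. Below 5 they could lie further off. H1-4, chosen after its values were seen, stood at -0.09, 0.48, 1.38, -0.81, 0.28 and 0.18 in mixtures 1 to 6. It had 4.77 normalised CPM in mixture 3 and 0.475 in mixture 4. Whether the histone reads came from transcripts with or without a tail was not tested. The part of the library preparation in the levels of MALAT1 and NEAT1 was not tested.

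The low transcripts did not leave the pure range beyond counting error in any mixture. MIR155HG was at 0.559, 0.495, 0.715, 0.779, 0.450 and 0.721 normalised CPM in mixtures 1 to 6, from 11 to 23 reads, against predictions of 0.574, 0.474, 0.630, 0.642, 0.663 and 0.538. MIR17HG was at 0.477 to 1.51, and its largest deviation was -0.57, in mixture 1, from 17 reads. The prediction there was 1.20, above the counting interval of the observed level (0.270 to 0.742), and the observed level was 0.399 times the predicted one. That interval leaves out the error of the prediction, which rests on pure lines with 14 to 101 reads. MIR22HG was at 0.150 to 0.802, highest in mixture 5 with 20 reads, at 1.28 times its highest pure line (0.654 to 2.51). HOTAIRM1 was at 0.169 to 1.08, highest in mixture 4, which had the largest share of SUDHL4, its top line, at 1.37 times the level there (0.756 to 2.56). At 5 to 42 reads a difference from the prediction was not detectable for these 4 transcripts unless it was large.

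Genes with the most similar pattern were ranked by Pearson's r of log2(value + 1) over the 10 libraries among 11781 genes at 5 or more in at least 1 library. The mixtures are made of the same lines, so the points share their sources and r is only a description. The closest to H19 were RHOXF2, DLK1 and FAM178B (r = 0.9997, 0.9995 and 0.9991). In mixture 6, DLK1 had 41.5 normalised CPM against 55.4 in K562, and RHOXF2 39.5 against 47.1. Both were picked for following H19 over libraries that include mixture 6, so these values are no independent support. The closest to SNHG16 were VMA21, ZNF121 and IRGQ (r = 0.962, 0.958 and 0.957). VMA21 had 88.4 normalised CPM in mixture 2 against 45.5 in HL60, its highest pure line, and ZNF121 had 26.5 against 14.3, which is no independent support, since these genes were picked for following SNHG16 over libraries that include mixture 2.

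GAS5 was most like MYL6, RPL7P9 and RPL7 (r = 0.984, 0.974 and 0.974). RPL7 encodes a ribosomal protein, and RPL7P9 is a pseudogene of it, so reads may be divided between them. SNHG1 was most like HIBCH, NGLY1 and GMPS (r = 0.990, 0.988 and 0.987). MALAT1 was most like C18orf54, B3GALT9 and STRN3 (r = 0.9399, 0.930 and 0.913), and NEAT1 most like TRIM6, C22orf39 and FGF5 (r = 0.968, 0.959 and 0.955). MIR155HG was most like SHISAL1, TREM1 and SLAMF9 (r = 0.988, 0.987 and 0.986), all highest in THP1. MIR17HG was most like EID1, LAPTM4A and LRRC42 (r = 0.931, 0.925 and 0.909). MIR22HG was most like COMMD3, PLK3 and EI24 (r = 0.923, 0.901 and 0.886), and HOTAIRM1 most like LTA4H, TSPAN31 and ARPC3 (r = 0.945, 0.944 and 0.943).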

How the data were processed

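Bulk RNA of 4 pure cell lines and 6 mixtures was sequenced, with 1 library per group, assigned from the titles. The submitters' processing notes name HISAT2, featureCounts and the build hg19; neither the annotation nor the strand setting is given in the sources used here. A single file holds the deposited signal of 20591 genes, of which 16800 carry a symbol. The authors gave this signal a CPM scale and corrected library sizes: column totals run from 909942 to 1108150, and nonzero values equal (reads + 0.5) times a step that is constant within a library (100% of values within 0.01). Reads were recovered by that step, and libraries hold between 24985570 and 36607612. The design had been written for CPM, and its rules were applied to the deposited signal unchanged.

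The members and gene lists were chosen with earlier results of these data known. The 14 lists hold 205 entries, 159 of them measured; listed genes whose symbol is not in the table were matched by Ensembl ID through the reference name table. Named genes are all members, the 3 genes most like each, up to 3 of each list with the widest range over the pure lines at 5 or more, and measured genes starting within 50 kb of a member; any other is said to be chosen after its values were seen. Neighbours that no result turned on are not all printed. Some items are not reported here.

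Log2 values carry a pseudocount of 1, so fold changes of low genes are understated on that scale. Mixture coefficients came from non-negative least squares on 100 enriched genes per line, without members or listed genes. HL60 had 110 candidates, with margins down to 2.20 log2 units. Coefficients summed to between 0.907 and 0.974 and were not rescaled for predictions. Length classes hold genes with a mean of at least 20 normalised CPM, by longest transcript. The scripts were tested on simulated data. Annotation came by Ensembl ID from GENCODE 29 (GRCh38), so positions are not of the authors' build. Python 3.11.15, pandas 2.3.3, NumPy 2.4.6, SciPy 1.17.1 and matplotlib 3.10.9 were used. Alternatives were plain CPM, housekeeping and median-of-ratios scaling, other margins, minimum levels, pseudocounts and signatures.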

Additional observations from a re-analysis of the deposited data

How the results depend on the processing

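The call of H19 in K562 and the count of values off the prediction by 1 log2 unit held under every alternative run. With a margin of 1 log2 unit instead of 2, 2 members were enriched, NEAT1 being the second. The 18 enriched listed genes became 32 with a margin of 1 and 10 with a margin of 3. The 3 values outside the pure range became 5 with housekeeping scaling. Of the 30 genes most like a member, 6 were also chosen by Spearman's rho and 2 by the 4 pure lines alone, so those names depend on the measure. Values off by 0.5 log2 units numbered 7 to 10 against 8, including 7 with the coefficients rescaled to sum to 1, an alternative chosen after seeing the data. SNHG16 in mixture 2 ranged from 1.36 to 1.45 log2 units over those fits.

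The sign of 57 of 60 pairwise differences between lines held with housekeeping scaling and of 58 with plain CPM and median-of-ratios scaling; the exceptions were MALAT1 and NEAT1 between HL60 and THP1, and NEAT1 between HL60 and SUDHL4 with housekeeping scaling. The scalings moved the median gene by up to -0.16 log2 units in HL60 and 0.19 in THP1. With 1 library per group no library could be left out of a group. No paired analysis was possible because each group has 1 library and no test was made. Depth limits MIR17HG, MIR155HG, MIR22HG and HOTAIRM1, which had 98 to 350 reads over all 10 libraries.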

Other observations

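Other long non-coding RNAs gave values that belong in none of the comparisons. Of 20 listed, 15 were measured, 8 reached 5 normalised CPM in a pure line and 1 was enriched, where 8.06% of all genes were. PVT1, a transcript beside MYC, had 55.3 normalised CPM in K562, 10.4 in SUDHL4, 3.16 in THP1 and 1.66 in HL60. CYTOR had 49.6 in K562, 11.8 in THP1, 7.63 in HL60 and 0.386 in SUDHL4. It is a close copy of MIR4435-2HG, which had the same order of lines, so reads of this pair cannot be assigned with certainty. CRNDE, matched by its Ensembl ID, had 26.5 in THP1, 24.02 in HL60, 13.3 in K562 and 0 reads in SUDHL4. The highest levels of the list, named after the values were seen, were those of OIP5-AS1, with 454 in HL60 and 187 in K562, and of NORAD, which binds PUMILIO proteins, with 237 in K562 and 74.5 in THP1.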
